A study of Arabidopsis thaliana with 11 samples.

Results

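The CENH3 peaks of the core of Arabidopsis thaliana chromosome 4 were described in 3 groups of seedlings that build their centromeres with CENH3 of different species. All deposited peaks on chromosome 4 were taken, except those lying wholly between positions 4325454 and 4482371 (TAIR10), a stretch with peaks in LoCENH3 libraries alone. The rule gave 353 of the 1983 peaks in the 6 deposited lists. Of the peaks left out by it, 139 were from LoCENH3 replicate 1 and 112 from LoCENH3 replicate 2.

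The ZmCENH3 group was homozygous for the mutation cenh3-1 and carried CENH3 of maize (Z. mays). The LoCENH3 group was also cenh3-1/cenh3-1 and carried CENH3 of L. oleraceum, a member of the same plant family as Arabidopsis. The AtCENH3 group was wild type and had its own protein. Both transgenic groups therefore shared the mutation, all groups were of ecotype Columbia, and each variant was precipitated with its own antibody, so genotype, antibody and CENH3 variant cannot be told apart. The labels give neither the promoter of the transgenes nor the number of lines used. Seedlings were grown for 7 to 10 days in shaken liquid medium. Each group had 2 libraries of nuclease-treated chromatin, and nothing says that these came from separate cultures, so the p-values measure only the spread between these libraries.

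CENH3 is the histone that takes the place of H3 in the nucleosomes of a centromere, and it marks where the kinetochore, the attachment site of the spindle, will form. Its histone fold is well conserved, while its N-terminal tail differs greatly between species. Plants without any CENH3 do not survive as embryos, so the introduced protein has to do the work in a cenh3-1/cenh3-1 plant. Arabidopsis centromeres consist of long arrays of a short satellite repeat with transposons in and beside them, and a reference assembly made before long reads holds only a small part of these arrays. A peak on that assembly can therefore stand for many copies of a sequence. Which sites hold satellite was not examined here.

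The libraries held 13886693 and 15798998 ChIP tags for ZmCENH3, 22489151 and 23205886 for LoCENH3, and 9016364 and 13280742 for AtCENH3. The control of each variant had 9825449 tags for ZmCENH3, 12730185 for LoCENH3 and 9239707 for AtCENH3, and it was shared by both lists of that variant. Pile-up, the number of extended tags stacked at the summit of a peak, is the authors' own measure. Levels are given as relative pile-up, which is the pile-up for each 1000000 tags left after the peak caller had scaled the larger library down. LoCENH3 replicate 1 stood apart with the fewest core peaks. The lists hold only peaks past a q-value cutoff of 0.05, so no peak does not mean no signal.

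Core peaks numbered 76 and 72 in the ZmCENH3 libraries, 33 and 45 in the LoCENH3 libraries, and 66 and 61 in the AtCENH3 libraries. Peaks that shared at least 1 bp were merged over the 6 lists into 84 sites. When sites less than 50 kb apart were joined, 10 groups of sites resulted, and 1 of them held most of the peaks. This main group spanned 194.6 kb, from 3838670 to 4033260, with 63 sites and 294 of the 353 peaks. Its sites carried 99.9% or more of the summed pile-up of the core in every library. To the left of it, 5 sites with 15 peaks lay between 3734149 and 3754272. To the right, 6 sites with 20 peaks lay between 4242136 and 4249605, and 3 sites with 12 peaks between 4762942 and 4778752. The other groups, at 1.07, 1.67, 2.96, 3.02, 3.18 and 10.64 Mb, had at most 2 sites each.

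**Figure D1:**
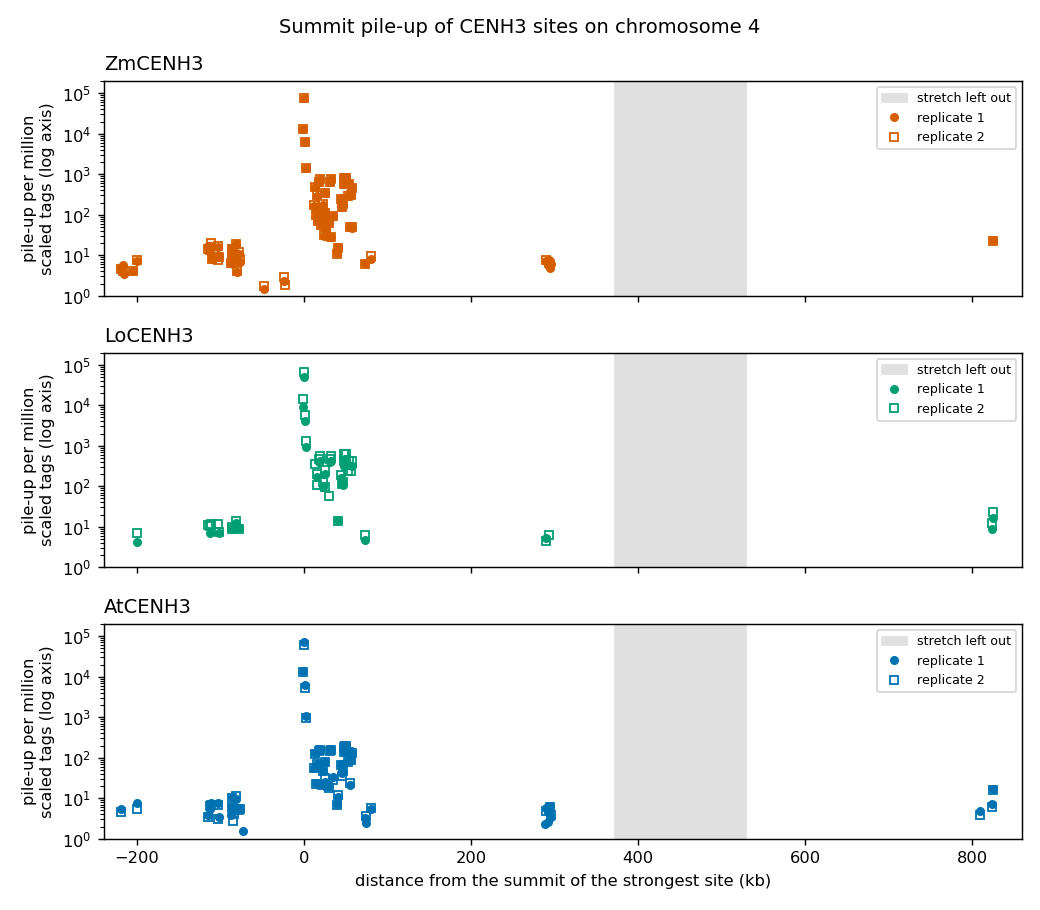
Core sites of the 6 libraries, with ZmCENH3 at the top, LoCENH3 in the middle and AtCENH3 at the bottom, by distance in kb from the summit of the strongest site (x axis) and relative pile-up (y axis, log scale). The strongest site stands at the same place in all 6 libraries, the group around it is shared, and the grey band marks the stretch left out; the groups at 1.07, 1.67, 2.96, 3.02, 3.18 and 10.64 Mb lie outside the axis.

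Within the main group, most pile-up lay in a segment of 5.5 kb, from 3950497 to 3956011, whose 4 sites had peaks in all 6 libraries. The strongest site of the core was in it, at 3953424 to 3953790, 367 bp long when merged. Its relative pile-up was 75883 and 75067 with ZmCENH3, 48615 and 65694 with LoCENH3, and 71556 and 59516 with AtCENH3. The summit was at position 3953564 in all 6 libraries. The ZmCENH3 levels lay above those of both other variants, whereas the LoCENH3 and AtCENH3 levels overlapped.

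The strongest site held 70.6% and 70.2% of the summed core pile-up with ZmCENH3, 68.9% and 66.5% with LoCENH3, and 74.9% and 73.2% with AtCENH3. Its left neighbour, at 3950497 to 3953112, was the longest site of the core, 2616 bp when merged. That site was covered by a single peak of 2596 and 2602 bp with ZmCENH3, 2579 and 2588 bp with LoCENH3, and 2613 and 2610 bp with AtCENH3. The lengths thus differed by little between variants in spite of the unequal number of peaks in the lists. Relative pile-up there was 13268 and 13453 with ZmCENH3, 9303 and 13981 with LoCENH3, and 13922 and 12895 with AtCENH3, and the groups overlapped. The summit of that broad peak was at 3952994 in both ZmCENH3 libraries, at 3952998 in both LoCENH3 libraries and at 3952718 in both AtCENH3 libraries. The summit of AtCENH3 thus lay at another place of the same peak, the same one in both replicates.

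The right neighbour, at 3954178 to 3955469, had a relative pile-up of 6213 and 6239 with ZmCENH3, 4100 and 5906 with LoCENH3, and 6182 and 5270 with AtCENH3. It was called as 2 peaks in each LoCENH3 library and as 1 peak in each other library, so its summed share was larger with LoCENH3 (9.76% and 10.4%) than with ZmCENH3 (5.78% and 5.83%) or AtCENH3 (6.47% and 6.48%). By the highest peak alone, LoCENH3 was not above the other variants there. The last site of the segment, at 3955767 to 3956011, had 1394 and 1390 with ZmCENH3, 937 and 1324 with LoCENH3, and 1099 and 937 with AtCENH3.

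To the right of that segment lay a tract of 45.7 kb, from 3965590 to 4011276, with 36 sites, 16 of them with peaks in all 6 libraries. Its bounds came from joining sites less than 8 kb apart, a distance chosen after the values were seen. It had 36 and 36 peaks with ZmCENH3, 16 and 24 with LoCENH3, and 31 and 31 with AtCENH3. Its peaks held 9.74% and 9.86% of the summed core pile-up with ZmCENH3, 6.68% and 7.51% with LoCENH3, and 2.74% and 3.10% with AtCENH3. No library of one variant overlapped with one of another, and the share was 3.36 times as high with ZmCENH3 as with AtCENH3 and 2.43 times as high with LoCENH3 as with AtCENH3. The 5.5 kb segment held the most with AtCENH3, 97.08% and 96.71%, against 89.98% and 89.87% with ZmCENH3 and 93.19% and 92.33% with LoCENH3.

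**Figure D2:**
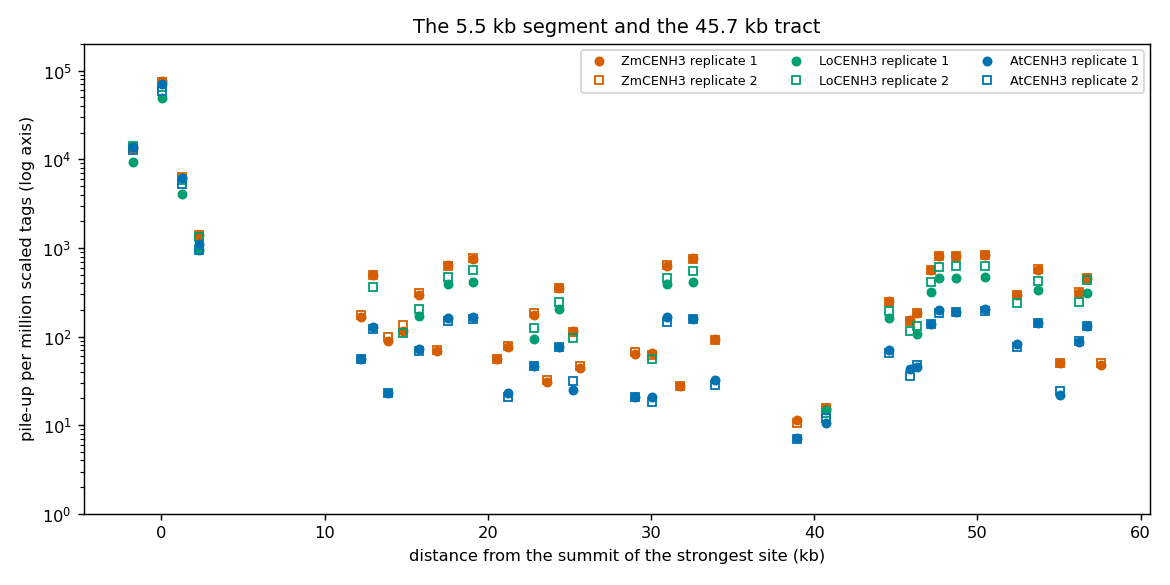
Sites of the 5.5 kb segment and the 45.7 kb tract beside it in the 6 libraries, by distance in kb from the summit of the strongest site (x axis) and relative pile-up (y axis, log scale). In the segment the variants lie close together, while along the tract most ZmCENH3 values lie highest, the LoCENH3 values next and the AtCENH3 values lowest.

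In percentage points the tract share differed by 2.71 between ZmCENH3 and LoCENH3, by 6.88 between ZmCENH3 and AtCENH3, and by 4.17 between LoCENH3 and AtCENH3. These are given without a test, since the bounds were chosen on these values. A sum over called peaks moves with how much was called, and in the tract that was 11.8 and 12.1 kb with ZmCENH3, 3.38 and 6.09 kb with LoCENH3, and 8.45 and 8.16 kb with AtCENH3. Over the 27 sites with peaks in all 6 libraries, counting the highest peak per site, the tract share was 7.72% and 7.79% with ZmCENH3, 6.96% and 6.53% with LoCENH3, and 2.08% and 2.36% with AtCENH3. The excess of ZmCENH3 over LoCENH3 then came to 1.01 points, and those over AtCENH3 to 5.53 points for ZmCENH3 and 4.52 points for LoCENH3.

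The 5 strongest sites of the core, picked by mean share in these same lists, were the 4 of the segment and the highest of the tract. Together they held 90.75% and 90.65% of the summed pile-up with ZmCENH3, 93.86% and 92.96% with LoCENH3, and 97.30% and 96.95% with AtCENH3, so that the pile-up of ZmCENH3 was the least gathered in them. The difference was -2.72 points for ZmCENH3 minus LoCENH3, -6.43 for ZmCENH3 minus AtCENH3 and -3.71 for LoCENH3 minus AtCENH3, with an exact two-sided permutation p of 0.333 each. That is the smallest that 2 against 2 libraries allow, and it came to 0.4 after Benjamini-Hochberg adjustment over the 24 comparisons of the core tested in this way, so no such comparison could pass 0.05. By summed fold enrichment LoCENH3 minus AtCENH3 turned to 9.27 points. Over the 27 sites with peaks in all 6 libraries, with the highest peak per site, ZmCENH3 minus LoCENH3 was -0.905 points. Peaks outside the segment and the tract held at most 0.281% of the summed pile-up in any library. The share of the 5 strongest sites is thus largely the tract share in reverse, and not a separate result.

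The highest site of the tract was at 4003950 to 4004161, with a relative pile-up of 827 and 829 with ZmCENH3, 475 and 631 with LoCENH3, and 203 and 193 with AtCENH3. The site at 4002176 to 4002379 had 813 and 805 with ZmCENH3, 462 and 627 with LoCENH3, and 191 and 191 with AtCENH3. The site at 4001109 to 4001313 had 816 and 802 with ZmCENH3, 454 and 609 with LoCENH3, and 198 and 183 with AtCENH3. At each of these sites both ZmCENH3 libraries lay above both LoCENH3 libraries, and these above both AtCENH3 libraries. The widest ratio of ZmCENH3 to AtCENH3 in the tract, 4.82, was at 3985965 to 3986263, where the values were 762 and 753 with ZmCENH3, 413 and 546 with LoCENH3, and 157 and 157 with AtCENH3. Next to it in size, with a ratio of 4.74, was the site at 3972531 to 3972833. It had 759 and 761 with ZmCENH3, 414 and 557 with LoCENH3, and 164 and 157 with AtCENH3.

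The same order held at lower sites of the tract. At 3977622 to 3978176 the levels were 351 and 353 with ZmCENH3, 203 and 247 with LoCENH3, and 76.7 and 76.7 with AtCENH3. At 3969106 to 3969528 they were 293 and 311 with ZmCENH3, 171 and 205 with LoCENH3, and 72 and 68.3 with AtCENH3. The exception in size was the site at 3993879 to 3994691, which overlaps the pseudogene AT4G06714. It had only 15.8 and 15.5 with ZmCENH3, 14.9 and 13.8 with LoCENH3, and 10.5 and 12.0 with AtCENH3, a ratio of ZmCENH3 to AtCENH3 of 1.39, the lowest of the 16 tract sites seen in all libraries.

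Over those 16 tract sites the median ratio of mean relative pile-up was 1.52 for ZmCENH3 over LoCENH3, 4.10 for ZmCENH3 over AtCENH3 and 2.74 for LoCENH3 over AtCENH3. Over the 4 sites of the 5.5 kb segment it was 1.24 for ZmCENH3 over LoCENH3, 1.12 for ZmCENH3 over AtCENH3 and 0.87 for LoCENH3 over AtCENH3. The control moved with the variant too. From the deposited fold enrichment, which divides the ChIP level at a summit by the background around it, the control level of each peak was solved. At the tract sites the control level of ZmCENH3 over that of LoCENH3 had a median of 0.58, that of ZmCENH3 over AtCENH3 2.37, and that of LoCENH3 over AtCENH3 4.13. At the 5.5 kb segment the control ratios were 0.59 for ZmCENH3 over LoCENH3, 1.65 for ZmCENH3 over AtCENH3 and 2.78 for LoCENH3 over AtCENH3. The solved control level, which is the background around a peak, was thus higher at the tract for LoCENH3 and ZmCENH3 than for AtCENH3. Over the 27 core sites with peaks in all 6 libraries, that of LoCENH3 over AtCENH3 was at least 2.46. That of ZmCENH3 over AtCENH3 ran from 0.88 to 5.70 over the same sites. How much of the difference in ChIP pile-up goes with the control level was not tested.

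Fold enrichment takes the control into account and gave another order. At the tract sites its median ratio was 2.60 for ZmCENH3 over LoCENH3, 1.82 for ZmCENH3 over AtCENH3 and 0.68 for LoCENH3 over AtCENH3. At the strongest site the deposited fold was 41.2 and 40.7 with ZmCENH3, 13.4 and 18.1 with LoCENH3, and 51.8 and 43.1 with AtCENH3, with a relative control level of 1843 for ZmCENH3, 3629 for LoCENH3 and 1381 for AtCENH3. In the median of the tract sites, LoCENH3 was above AtCENH3 by pile-up and below it by fold. ZmCENH3 was above AtCENH3 there on both scales.

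**Figure D3:**
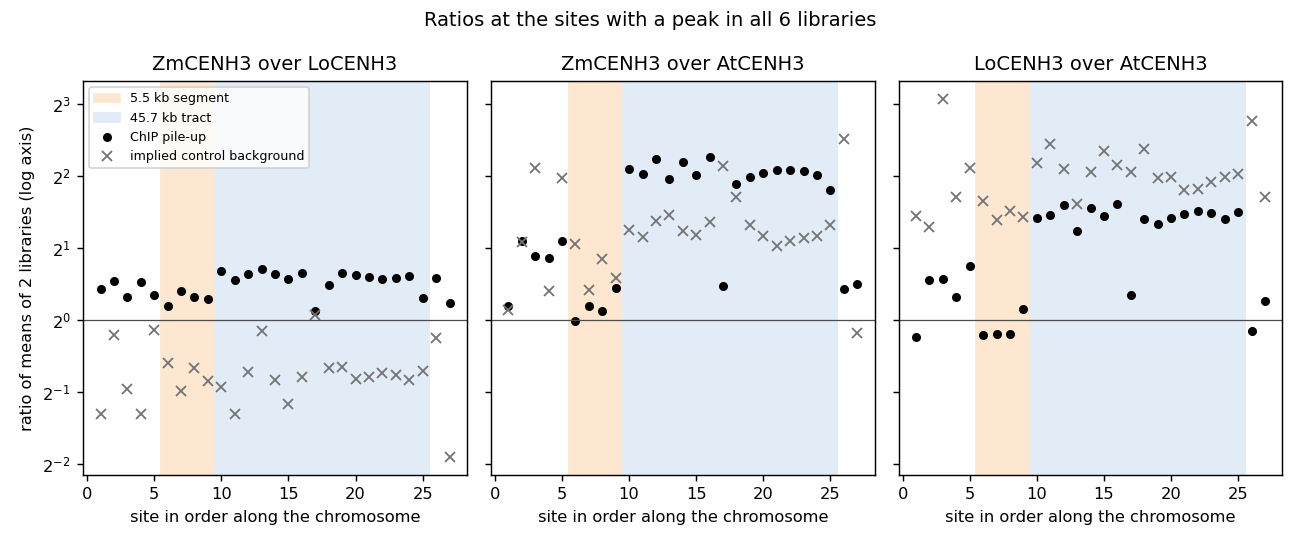
Ratio between variants (y axis, log scale) at the 27 sites with peaks in all 6 libraries, in order along the chromosome (x axis), for ZmCENH3 over LoCENH3, ZmCENH3 over AtCENH3 and LoCENH3 over AtCENH3; dots are mean ChIP relative pile-up and crosses the control level implied by the deposited fold enrichment. The dots of ZmCENH3 over AtCENH3 run from 0.996 in the 5.5 kb segment to 4.82 in the tract, and the crosses also differ between variants.

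Sites with a peak in both replicates of both variants allow the levels to be compared library by library, and the outcome depended on the scale. By relative pile-up, ZmCENH3 was higher than LoCENH3 without overlap at 27 of 29 such core sites, where the share over chromosomes 1 to 5, core included, was 66.4%. ZmCENH3 was higher than AtCENH3 at 46 of 50 core sites, against 83.6% over chromosomes 1 to 5. LoCENH3 was higher than AtCENH3 at 22 of 28 core sites, against 42.7%. By that measure no core site was lower without overlap in any of these pairs, where the shares over chromosomes 1 to 5 were 0% for ZmCENH3 over LoCENH3, 6.88% for ZmCENH3 over AtCENH3 and 5.83% for LoCENH3 over AtCENH3. By deposited fold enrichment, ZmCENH3 was higher than LoCENH3 at 27 of the 29 sites, against 71.8% over chromosomes 1 to 5, and lower at 0, against 8.18%. ZmCENH3 was higher by fold than AtCENH3 at 30 of the 50 sites and lower at 15, against 30.2% and 48.7%. LoCENH3 was higher by fold than AtCENH3 at 0 of the 28 sites and lower at 27, against 0.971% and 94.2%. The direction of LoCENH3 against AtCENH3 was thus opposite on the 2 scales.

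Over the same core sites the median ratio of relative pile-up was 1.46 for ZmCENH3 over LoCENH3, 3.12 for ZmCENH3 over AtCENH3 and 2.45 for LoCENH3 over AtCENH3. On the other chromosomes the medians, chosen in the same way, were 1.21 for ZmCENH3 over LoCENH3 (81 sites), 1.67 for ZmCENH3 over AtCENH3 (139 sites) and 0.986 for LoCENH3 over AtCENH3 (75 sites). The ratio of ZmCENH3 to AtCENH3 was above 3 at 27 of 50 core sites and at 4 of 139 sites elsewhere, and the difference was not tested, since sites are not replicates.

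The flank of the main group to the left of the 5.5 kb segment had many low peaks. Its left end held 7 sites between 3838670 and 3852196 and 10 sites between 3865607 and 3879803. The first site of the main group, at 3838670 to 3839285, had a relative pile-up of 16.8 and 14.0 with ZmCENH3, 10.8 in LoCENH3 replicate 2 with no peak in replicate 1, and 3.88 and 3.46 with AtCENH3. The site at 3871368 to 3873003, which overlaps the pseudogenes AT4G06664 and AT4G06666, had 19.5 and 19.0 with ZmCENH3, 12.6 and 14.0 with LoCENH3, and 9.54 and 11.7 with AtCENH3. Over the 4 sites of this flank with peaks in all libraries the median ratio was 1.36 for ZmCENH3 over LoCENH3, 2.0 for ZmCENH3 over AtCENH3 and 1.48 for LoCENH3 over AtCENH3. The control ratios there were 0.69 for ZmCENH3 over LoCENH3, 3.03 for ZmCENH3 over AtCENH3 and 3.79 for LoCENH3 over AtCENH3.

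The left edge of the main group was at 3838676 in both ZmCENH3 libraries, at 3840232 and 3838710 in the LoCENH3 libraries, and at 3838670 and 3838704 in the AtCENH3 libraries. The right edge was at 4033255 and 4033260 with ZmCENH3, at 4025858 and 4025887 with LoCENH3, and at 4033255 and 4033260 with AtCENH3. The mean edges of ZmCENH3 and AtCENH3 thus differed by -11 bp on the left and 0 bp on the right (exact two-sided permutation p = 1 for each). The left edge of ZmCENH3 minus LoCENH3 was -795 bp and that of LoCENH3 minus AtCENH3 784 bp, through LoCENH3 replicate 1, and without that library they were -34 bp for ZmCENH3 minus LoCENH3 and 23 bp for LoCENH3 minus AtCENH3. With LoCENH3 the right edge lay 7385 bp further in than with either other variant (exact two-sided permutation p = 0.333 for both). That shift turned on 1 site of low relative pile-up, at 4033061 to 4033260, with 8.14 and 9.62 with ZmCENH3, no peak with LoCENH3, and 5.43 and 5.87 with AtCENH3. When each list was cut to an equal number of best-scoring peaks, the difference turned to -14596.5 bp for ZmCENH3 minus LoCENH3 and 15514 bp for LoCENH3 minus AtCENH3.

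Beyond the main group, peaks were weak in every library. The highest of them, at 4778278 to 4778752, had 23.3 and 23.0 in relative pile-up with ZmCENH3, 16.8 and 22.5 with LoCENH3, and 16.7 and 15.9 with AtCENH3. The site at 3753407 to 3754272 had 7.42 and 7.78 with ZmCENH3, 4.18 and 7.11 with LoCENH3, and 7.76 and 5.5 with AtCENH3. The site at 4242611 to 4242946 had 7.06 and 7.47 with ZmCENH3, 5.29 and 4.40 with LoCENH3, and 5.77 and 4.97 with AtCENH3. These 3 were the only outlying sites with peaks in all 6 libraries, and their median ratio was 1.35 for ZmCENH3 over LoCENH3, 1.35 for ZmCENH3 over AtCENH3 and 0.90 for LoCENH3 over AtCENH3. Some outlying sites had no LoCENH3 peak. At 4247353 to 4247643 the relative pile-up was 4.97 and 6.27 with ZmCENH3 and 6.32 and 6.25 with AtCENH3. At 3734149 to 3734423, in the pseudogene AT4G06620, it was 4.97 and 4.49 with ZmCENH3 and 5.43 and 4.52 with AtCENH3. The groups at 1.07, 1.67, 3.18 and 10.64 Mb rested on a single peak of a single library each.

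ZmCENH3 peaks covered the most of the core, 29.5 and 30.9 kb, against 10.1 and 14.5 kb with LoCENH3 and 21.8 and 20.1 kb with AtCENH3. The means were 30.2 ± 0.991 kb with ZmCENH3, 12.3 ± 3.12 kb with LoCENH3 and 21.0 ± 1.18 kb with AtCENH3 (SD, n = 2 each). On the log2 scale the covered length of ZmCENH3 was higher than that of LoCENH3 by 1.30 and higher than that of AtCENH3 by 0.53, while that of LoCENH3 over AtCENH3 was -0.77. The number of peaks gave log2 ratios of 0.92 for ZmCENH3 over LoCENH3, 0.22 for ZmCENH3 over AtCENH3 and -0.70 for LoCENH3 over AtCENH3. No libraries overlapped between variants in either measure, and the exact two-sided permutation p was 0.333 for each of the 6 comparisons. The LoCENH3 libraries had the most tags and the fewest core peaks. With equal numbers of peaks the log2 ratios of covered length were 0.43 for ZmCENH3 over LoCENH3, 0.17 for ZmCENH3 over AtCENH3 and -0.26 for LoCENH3 over AtCENH3. With the LoCENH3 peaks of the stretch left out added back, the log2 ratio of covered length of ZmCENH3 over LoCENH3 turned to -1.41, and that of LoCENH3 over AtCENH3 to 1.94.

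Core peaks were longer with ZmCENH3, averaging 388 and 429 bp per library, against 305 and 322 bp with LoCENH3 and 330.5 and 330.1 bp with AtCENH3. The mean difference was 95.1 bp for ZmCENH3 minus LoCENH3, 78.4 bp for ZmCENH3 minus AtCENH3 and -16.8 bp for LoCENH3 minus AtCENH3 (exact two-sided permutation p = 0.333 for each). These sizes moved with the peaks that were kept. With equal numbers of peaks ZmCENH3 minus AtCENH3 was 47.5 bp and LoCENH3 minus AtCENH3 -63.0 bp, and among the better-scoring 50% of each list ZmCENH3 minus LoCENH3 was 56.0 bp. Without LoCENH3 replicate 1, LoCENH3 minus AtCENH3 was -8.43 bp. Peaks over 500 bp numbered 16 and 16 with ZmCENH3, 2 and 4 with LoCENH3, and 4 and 4 with AtCENH3. The shortest peaks of every list had 165 to 168 bp, close to the tag extension of 165 bp used in peak calling. The median distance between neighbouring summits within groups was 1129 and 1130.5 bp with ZmCENH3, 1789 and 1292 bp with LoCENH3, and 1329.5 and 1280.5 bp with AtCENH3. ZmCENH3 summits were the closest together, by -411 bp relative to LoCENH3 and -175 bp relative to AtCENH3 (exact two-sided permutation p = 0.333 for both). The LoCENH3 and AtCENH3 libraries overlapped (difference 235.5 bp, exact two-sided permutation p = 0.667). Without LoCENH3 replicate 1 the difference was -162.25 bp for ZmCENH3 minus LoCENH3 and -13 bp for LoCENH3 minus AtCENH3, and without LoCENH3 replicate 2 it was -659.25 bp and 484 bp for these pairs.

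**Figure D4:**
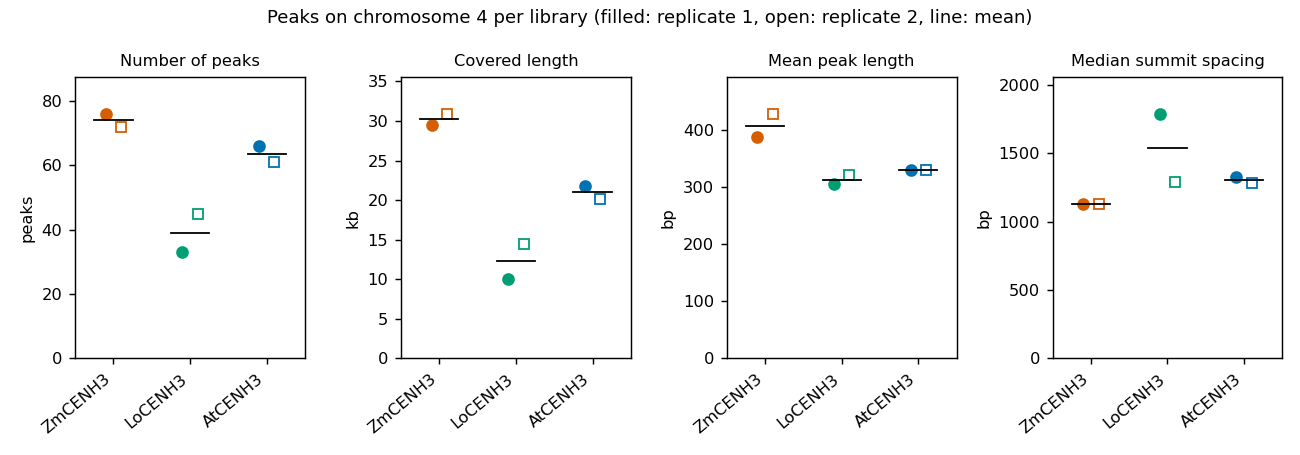
Number of core peaks, covered length in kb, mean peak length in bp and median distance between neighbouring summits in bp (y axes), for ZmCENH3, LoCENH3 and AtCENH3 (x axis); dots are the 2 libraries of a variant and lines their mean. ZmCENH3 has the most peaks, the most covered bases and the longest peaks, and the LoCENH3 libraries are the farthest apart in spacing.

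A variant was said to have a site when both its libraries had a peak there and to lack it when neither had one. All 3 variants had 27 of the 84 sites (32.1%), against 19.6% of the 520 merged sites of chromosomes 1 to 5 outside the stretch left out. ZmCENH3 had and LoCENH3 lacked 29 sites (34.5%), close to the 32.7% over chromosomes 1 to 5. LoCENH3 had and ZmCENH3 lacked 1 site (1.19%, against 0.577%). ZmCENH3 had and AtCENH3 lacked 15 sites (17.9%, against 19.8%), and AtCENH3 had and ZmCENH3 lacked 3 sites (3.57%, against 2.69%). LoCENH3 had no site that AtCENH3 lacked (0%, against 0.769%), while AtCENH3 had and LoCENH3 lacked 15 sites (17.9%, against 11.9%). In lists of equal length, ZmCENH3 had and LoCENH3 lacked 7 sites, and LoCENH3 had and ZmCENH3 lacked 4.

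The deposited lists were thus largely nested, and this was not particular to the core. On the other chromosomes LoCENH3 had and ZmCENH3 lacked 2 of 436 sites, and LoCENH3 had and AtCENH3 lacked 4. AtCENH3 had and ZmCENH3 lacked 11 of them. The overlaps that follow were counted on the core only. Both libraries had a peak at 71 sites with ZmCENH3, 30 with LoCENH3 and 54 with AtCENH3. Of the 30 LoCENH3 sites, ZmCENH3 had 29 and AtCENH3 28. Of the 54 AtCENH3 sites, ZmCENH3 had 50. In bases called in both replicates, 9.41 kb were shared by ZmCENH3 and LoCENH3, which is 33.5% of the ZmCENH3 bases and 98.2% of the LoCENH3 bases. ZmCENH3 and AtCENH3 shared 17.4 kb, or 62.0% of the ZmCENH3 bases and 93.8% of the AtCENH3 bases. LoCENH3 and AtCENH3 shared 9.12 kb, or 95.2% of the LoCENH3 bases and 49.2% of the AtCENH3 bases.

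**Figure D5:**
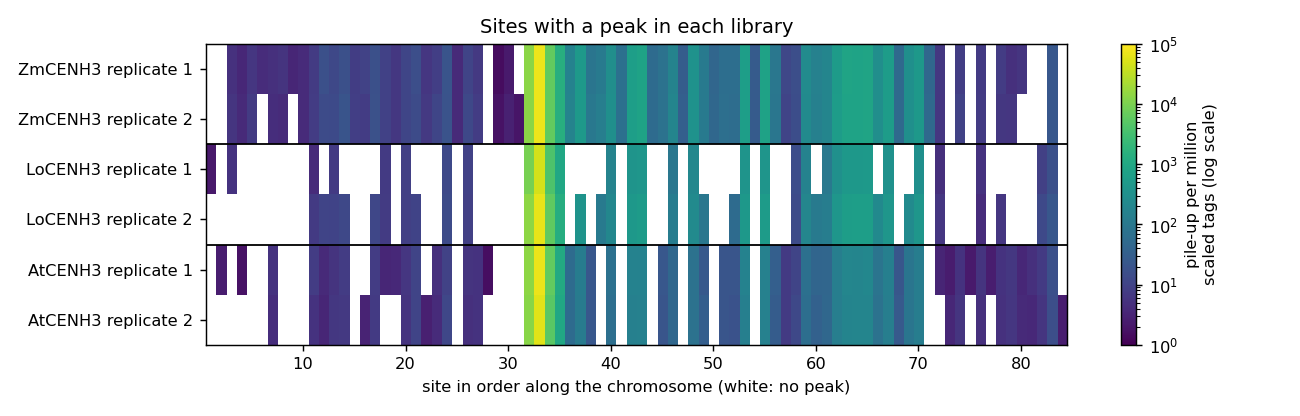
The 84 sites in order along the chromosome (x axis) in each of the 6 libraries (rows, ZmCENH3 at the top, then LoCENH3, then AtCENH3), coloured by relative pile-up on a log scale; white marks a site without a peak. Of these sites, 27 have a peak in every library, and the gaps of the LoCENH3 rows lie mostly at sites that are weak in the other rows.

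The sites without a peak in another variant were mostly weak ones by relative pile-up. The ZmCENH3 sites that LoCENH3 also had showed a median relative pile-up of 351.8 over 29 sites, against 8.9 over the 29 sites that LoCENH3 lacked. In the tract these medians were 570.8 over 16 sites and 55.7 over 13 sites. In the flank to the left of the 5.5 kb segment they were 11.5 over 5 sites and 6.54 over 9 sites. In the median, tract sites that LoCENH3 lacked were thus higher with ZmCENH3 than flank sites that LoCENH3 had, so weakness is meant within a region. The ZmCENH3 sites that AtCENH3 also had showed 104.1 over 50 sites, against 8.2 over the 15 sites that AtCENH3 lacked. ZmCENH3 alone had 13 sites in both libraries with no peak of another variant, AtCENH3 had 2 such sites and LoCENH3 had 0. These counts were made for the core only, so they are not read as a trait of it. The nearest shares that were also taken over chromosomes 1 to 5 were close to the core. ZmCENH3 had and LoCENH3 lacked 34.5% of core sites against 32.7%, and ZmCENH3 had and AtCENH3 lacked 17.9% against 19.8%. The longest of the sites of ZmCENH3 alone, at 3929628 to 3930104, overlaps the pseudogene AT4G06692 and had 2.30 and 2.91 in relative pile-up. The next, at 3842770 to 3843177 in AT4G06656, had 8.06 and 8.29. The sites of AtCENH3 alone were at 4762942 to 4763173, with 4.99 and 3.77, and at 4027261 to 4027448, with 2.44 and 3.61. The 1 site of LoCENH3 that ZmCENH3 lacked, at 4777221 to 4777395, had 8.72 and 12.6 with LoCENH3 and 7.21 and 5.95 with AtCENH3, and it was singled out after its count was seen.

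Libraries of the same variant were on average more alike than libraries of different variants, by a margin that could not pass 0.05 in this design. The likeness of 2 libraries was taken as 1 minus 0.5 times their summed difference in share of pile-up over sites, so that 1 means equal shares. It averaged 0.983 within variants (0.970 to 0.995) and 0.929 between variants (0.909 to 0.954). The excess of 0.0534 gave an exact one-sided permutation p of 0.0667, the smallest that the 15 ways to pair 6 libraries allow, and it was 0.0298 over the 27 sites of all libraries with the highest peak per site. Outside the 5.5 kb segment, which dominates these shares, the ranges overlapped. There the likeness averaged 0.926 within variants (0.819 to 0.990) and 0.848 between variants (0.726 to 0.912). The lowest value within a variant was that of the LoCENH3 libraries, below the 0.901 to 0.903 of the pairs of ZmCENH3 with AtCENH3. The Jaccard index of covered bases, the shared bases over all bases of a pair of libraries, averaged 0.767 within variants and 0.503 between them (excess 0.264, exact one-sided permutation p = 0.0667). Between variants it was 0.391 for ZmCENH3 and LoCENH3, 0.594 for ZmCENH3 and AtCENH3, and 0.524 for LoCENH3 and AtCENH3.

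Summits mostly lay close together across variants. At the 24 sites with exactly 1 peak in each library, the median distance of summits was 2.5 to 6.5 bp between the libraries of a variant and 4 to 9 bp between libraries of different variants. The largest distance between the libraries of a variant was 72 bp with ZmCENH3, 78 bp with LoCENH3 and 73 bp with AtCENH3. The summits of all 6 libraries lay within 20 bp of each other at 11 of these sites and more than 50 bp apart at 8. The site at 3970888 to 3971345 had its summit at 3971041 in both ZmCENH3 and both AtCENH3 libraries, and at 3971118 and 3971119 in the LoCENH3 libraries. Shifts of about this size also occurred between replicates at other sites. Its relative pile-up was 635 and 633 with ZmCENH3, 391 and 467 with LoCENH3, and 163 and 148 with AtCENH3.

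Of the 84 core sites, 59 overlapped no annotated gene. In the RefSeq gene table of assembly TAIR10.1, the other 25 sites overlapped 19 genes, of which 16 were pseudogenes and 3 protein-coding genes. Pseudogenes make up 12.2% of the 5842 genes on the whole of chromosome 4. Their share among genes close to the core sites was not counted, so location and peaks cannot be told apart here. The 3 protein-coding genes lay outside the main group, at 1.07, 2.96 and 10.64 Mb. Peaks in both replicates touched 13 of the 19 genes with ZmCENH3, 4 with LoCENH3 and 8 with AtCENH3. The variants stood in the same order by sites with a peak in both replicates, 71, 30 and 54. Some overlaps were short, with 8 bp each for AT4G06622 and AT4G06678 in a single ZmCENH3 library. All 6 libraries had a peak in 4 genes, AT4G06666, AT4G06700, AT4G06714 and AT4G07456. Of these, AT4G06700 lay in the 5.5 kb segment, where peaks covered 83 to 106 bp of it. The tract had 3 sites in genes among its 36. The protein-coding genes were the splicing factor gene SR34b (AT4G02430), with a peak in LoCENH3 replicate 1 alone, AT4G19520, with a peak in AtCENH3 replicate 2 alone, and AT4G05612. The site in AT4G05612, at 2960700 to 2960991, had 5.18 and 5.95 in relative pile-up with ZmCENH3, 5.47 in LoCENH3 replicate 1 alone and no peak with AtCENH3.

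Outside the stretch left out, the core took a like part of the peak bases on chromosomes 1 to 5 in each library. It was 16.1% and 15.8% for ZmCENH3, 18.4% and 18.2% for LoCENH3, and 16.8% and 18.2% for AtCENH3. The differences were -2.35 points for ZmCENH3 minus LoCENH3 and -1.56 points for ZmCENH3 minus AtCENH3 (exact two-sided permutation p = 0.333 for both), and 0.794 points for LoCENH3 minus AtCENH3, where the libraries overlapped (exact two-sided permutation p = 0.667). Without AtCENH3 replicate 1, ZmCENH3 minus AtCENH3 was -2.28 points and LoCENH3 minus AtCENH3 0.068, and without AtCENH3 replicate 2 they were -0.832 and 1.52. All 3 differences changed sign among the better-scoring peaks of each list. When the LoCENH3 peaks of the stretch were counted in the core and in the total, ZmCENH3 minus LoCENH3 was -43.7 points. LoCENH3 minus AtCENH3 was then 42.1 points, so the likeness holds only with the stretch left out. Of the summed pile-up outside the stretch, the core held 28.3% and 28.3% with ZmCENH3, 22.8% and 26.5% with LoCENH3, and 26.0% and 25.6% with AtCENH3.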

How the data were processed

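Chromatin of seedling nuclei treated with micrococcal nuclease was precipitated with a CENH3 antibody, and libraries were size-selected to 200 to 400 bp, per the labels' protocols. Of 11 samples, 6 ChIP libraries had peak lists, grouped by their titles, and 3 antibody controls and 2 inputs were not analysed here. The submitters' processing notes name BWA and TAIR10. Per the file headers, MACS 2.1.0.20140616 was run library by library, with tags extended to 165 bp, all duplicates kept, a genome size of 2.7 Gb and a q-value cutoff of 0.05. The headers do not say which sample each control was. The sources used here do not say whether tags matching several places were kept.

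The deposited pile-up is the coverage signal of extended tags at the summit after the larger library was scaled down. The deposited fold enrichment is its ratio to local background, read as (pile-up + 1) / (background + 1), and the control level was solved from it. Of the deposited −log10 values, those of the p-value and the q-value come from the peak caller, and only the q-value was used, to rank peaks. Positions and lengths are as the authors deposited them, 1-based. Relative pile-up is that for each 1000000 scaled tags, of which there were 9825449 for both ZmCENH3 lists, 12730185 for both LoCENH3 lists, and 9016364 and 9239707 for the AtCENH3 lists. A library's share at a site sums its peaks there, and its level there is that of its highest peak.

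Values were computed with scipy 1.17.1, pandas 2.3.3 and numpy 2.4.6 in Python 3.11.15, figures were drawn with matplotlib 3.10.9, and the functions were tested on simulated intervals. Variants were compared by exact two-sided permutation over libraries, and likeness by exact one-sided permutation over pairings of libraries. The members and the lists were chosen with earlier results of these data known. Sites named were the 10 with the highest mean share, the edge sites of the main group, up to 10 outlying sites in both replicates of a variant, the longest sites of a single variant and those with the largest share ratios. The sites in AT4G06714, AT4G06664, SR34b and AT4G19520 were named after their values were seen. Genes came from the RefSeq table of TAIR10.1, whose nuclear chromosomes were assumed to be numbered as in TAIR10. No genome sequence was used. Alternatives were stricter and equal lists, each library left out, other joining distances, lengths, weights and overlap rules, the stretch of LoCENH3 peaks included, and a replicate block.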

Additional observations from a re-analysis of the deposited data

How the results depend on the processing

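The 29 comparisons of values kept their direction in 258 of 284 alternatives, reversed in 23 and became other than 0 in 3, and the 7 counts of sites stayed within 1.5 times in 56 of 77. Some alternatives could not change a value. A replicate block leaves a difference of means as it was, and the added stretch leaves ZmCENH3 against AtCENH3 as it was. Size was not counted for the comparisons of values. The core share of peak bases of LoCENH3 minus AtCENH3 counted as kept though it went from 0.794 to 42.1 points with the stretch added. The cause of these changes was not tested unless named.

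Among the better-scoring 50% of each list, the core share of peak bases differed by 1.11 points for ZmCENH3 minus LoCENH3, 0.446 for ZmCENH3 minus AtCENH3 and -0.661 for LoCENH3 minus AtCENH3. All 3 variants then had 16 sites, ZmCENH3 without LoCENH3 13, LoCENH3 without ZmCENH3 0, ZmCENH3 without AtCENH3 7 and AtCENH3 without LoCENH3 5. With equal numbers of peaks the share differences were 3.14, 0.675 and -2.47 points, and the counts were 7 for ZmCENH3 without LoCENH3, 4 for LoCENH3 without ZmCENH3, 6 for ZmCENH3 without AtCENH3, 3 for LoCENH3 without AtCENH3 and 3 for AtCENH3 without LoCENH3. In both settings the edges of ZmCENH3 minus AtCENH3 were 15.5 bp on the left and 917.5 bp on the right, as they were with groups joined over 10 kb, and with 200 kb the left was 2.5 bp. With equal numbers the right edge of ZmCENH3 minus LoCENH3 was -14596.5 bp and that of LoCENH3 minus AtCENH3 15514 bp.

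With the LoCENH3 peaks of the stretch left out added back, the log2 ratio of ZmCENH3 over LoCENH3 was -1.15 for peaks and -1.41 for covered length, that of LoCENH3 over AtCENH3 1.37 and 1.94. Mean length differed by -79.4 and 157.7 bp and spacing by 14.25 and -189.5 bp for these pairs, with 77 sites of LoCENH3 without ZmCENH3 and 76 without AtCENH3. Among the better-scoring 50%, spacing differed by -750.75 bp for ZmCENH3 minus LoCENH3 and 584 bp for LoCENH3 minus AtCENH3. By summed fold enrichment the share of the 5 strongest sites, lower by 3.71 points in LoCENH3 than in AtCENH3 by pile-up, was 9.27 points higher. Sites merged over 500 bp gave 17 of ZmCENH3 without LoCENH3 and 9 without AtCENH3, and 50% coverage gave 1 of LoCENH3 without AtCENH3.

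Leaving out each library gave ranges of -13 to 484 bp for spacing of LoCENH3 minus AtCENH3, -28 to 6 bp for the left edge and -2.5 to 2.5 bp for the right edge of ZmCENH3 minus AtCENH3. The counts ranged from 27 to 38 sites for all 3 variants, 29 to 41 for ZmCENH3 without LoCENH3, 1 to 2 for LoCENH3 without ZmCENH3, 15 to 19 for ZmCENH3 without AtCENH3, 3 to 7 for AtCENH3 without ZmCENH3, 0 to 2 for LoCENH3 without AtCENH3 and 15 to 26 for AtCENH3 without LoCENH3. The tract share of ZmCENH3 minus AtCENH3 ranged from 6.70 to 7.06 points, and it was 3.6 by pile-up times length and 13.7 by fold. The tract result, with all its alternatives, and the setting with the highest peak per site were chosen after the data were seen.

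Equal numbers of peaks were not run for the number of peaks, which is then 0 by construction, nor the edges with the stretch added, which then becomes the main group. The replicate differences at 27 sites had Pearson correlations of -0.242 for ZmCENH3 with LoCENH3, -0.199 for ZmCENH3 with AtCENH3 and -0.218 for LoCENH3 with AtCENH3. These cannot show whether libraries with the same replicate number share a batch. With a replicate block the log2 ratio of covered length was 1.32 for ZmCENH3 over LoCENH3, 0.53 for ZmCENH3 over AtCENH3 and -0.80 for LoCENH3 over AtCENH3, and every exact sign-flip p was at least 0.5, the smallest it allows. With 2 libraries a variant, the peak cutoff and controls that differ between variants, no difference in weak sites can be told apart from one in calling.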

Other observations

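Some sites of the tract came in pairs with nearly the same level in every library, a pattern seen after the values were known and not tested. Of the 120 pairs among the 16 tract sites with peaks in all libraries, 4 differed by at most 5% in each of the 6 libraries. The sites at 3970888 and 3984317 were 1 such pair, with a median distance of 13430 bp between summits. The sites at 3972531 and 3985965 were another, 13430.5 bp apart, so both pairs had the same offset. The other pairs were those at 4000569 and 4007125, 6568.5 bp apart, and at 4001109 and 4002176, 1062 bp apart. The site at 4003950 narrowly missed the limit with both sites of that last pair. Over the 6 libraries, the ratio to its level was 1.013 to 1.053 for 4001109 and 1.006 to 1.065 for 4002176. The site at 3984317 had a relative pile-up of 628 and 636 with ZmCENH3, 388 and 463 with LoCENH3, and 168 and 145 with AtCENH3, close to the values of its partner. No genome sequence was used here, so whether these places share sequence was not examined.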
